A study of Mus musculus with 4 samples.

Results

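Autophagy delivers parts of the cytoplasm to the lysosome for breakdown, and the genes described here encode the proteins of that route in mouse liver. They are 45 genes that were listed by name, 23 for the autophagy machinery and 22 for the lysosome, and a gene was read only through probe sets whose annotation names that gene alone. Of the 45 genes, 43 had such a probe set and were measured, among 6947 measured genes and 12393 genes with a probe set of their own. Measured means above 16 intensity units on at least 1 array. Atg9a had no probe set in the annotation used and was not analysed here, and the 3 probe sets for Bnip3l also name Bnip3l-ps, so no value is given for it.

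The study compared the livers of male wild-type 129S1/SvImJ mice with those of male PPARα-null 129S4/SvJae mice, aged 3 to 5 months, to examine what PPARα, the fatty acid-activated nuclear receptor, does in fasting. Mice of each genotype were either fed or deprived of food for 24 h, and liver RNA of the 5 mice in each of the 4 groups was pooled for 1 Affymetrix MOE430A array. No difference therefore has a replicate check, and no test was run. The null mice lack functional Ppara in the whole body and belong to another substrain than the wild-type mice, so genotype and substrain cannot be told apart.

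In autophagy, the Ulk kinases start the process, a lipid kinase complex around Beclin 1 marks the forming membrane, and proteins of the Atg8 family are attached to that membrane, where receptors such as p62 hold the cargo. The closed vesicle then fuses with a lysosome, whose proton pump acidifies the lumen for its hydrolases. In liver, fasting is a classical stimulus of this route, which is controlled both at the protein level and through transcription factors such as TFEB and the FoxO proteins.

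The 4 arrays had median intensities between 14.4 and 14.6 units. Ppara, as a check on the labels, stood at 583 units in fed and 755 units in fasted wild-type liver, and at 104 and 16.3 units in fed and fasted PPARα-null liver. The position of its probes relative to the disruption was not examined. The 10 measured hepatocyte markers lay between 2198 and 27923 units on all arrays. The 16 Kupffer cell and macrophage markers with a probe set of their own (17 listed, 13 measured) were summed. They gave 1098 units in fed and 679 units in fasted wild-type liver, and 1174 and 1372 units in fed and fasted null liver. Exocrine pancreas markers summed to 686 and 988 units in the fed wild-type and null pools and to 157 and 165 units in the fasted pools, and stellate cell and fibroblast markers to 1541, 1542, 2036 and 2760 units in the same order as the macrophage markers. The part of these cells in the values of the autophagy and lysosome genes was not tested.

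Of the 43 measured genes, 34 had a promoter window in the RefSeq annotation of GRCm38.p6, which covers 250 bases before and 50 bases after an annotated start. Both strands were searched for the E-box CACGTG and for the longer palindrome TCACGTGA, which contains the E-box and is the core of the element that TFEB binds in lysosomal genes. TCACGTGA was present in 5 of 18 lysosomal genes (27.8%) and in 1 of 16 machinery genes (6.25%), beside 1.12% of all 27025 genes with a window and 2.37% of measured genes. The shorter E-box was found in 9 lysosomal genes (50.0%) and 4 machinery genes (25.0%), beside 8.09% of all genes and 12.5% of measured genes. A match describes the letters and is not a binding site. The 28-base stretches around the palindrome are printed below on the strand of the gene, with TCACGTGA in capitals, because lysosomal genes are known for this element. Ctsa holds 2 copies, of which the one before the start is shown.
Ctsa (chr2:164833750-164833777, + strand, 13 bases before the start): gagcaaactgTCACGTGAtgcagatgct
Ctsd (chr7:142387909-142387936, - strand, 99 bases before the start): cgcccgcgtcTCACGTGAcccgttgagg
Mcoln1 (chr8:3500463-3500490, + strand, 46 bases before the start): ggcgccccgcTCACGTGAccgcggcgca
Atp6v0d1 (chr8:105566051-105566078, - strand, 4 bases before the start): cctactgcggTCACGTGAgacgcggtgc
Atp6v1a (chr16:44139374-44139401, - strand, 132 bases before the start): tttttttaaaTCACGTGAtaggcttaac
Atg3 (chr16:45158747-45158774, + strand, 72 bases before the start): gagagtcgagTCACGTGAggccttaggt

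The 6 genes with the palindrome had little in common in their values. Ctsa, Ctsd, Atg3 and Atp6v0d1 stayed within 1.5-fold in each of the 4 comparisons, Mcoln1 was higher in fasted than in fed null liver, and Atp6v1a was lower in fasted than in fed liver of both genotypes. Neither the FoxO core GTAAACA, held by 4.05% of all genes with a window, nor a direct repeat of the type that PPARα binds, AGGTCANAGGTCA with up to 1 mismatch, held by 0.644%, was present in these letters of the 34 genes, which says nothing of sites elsewhere. The promoter of Bnip3, the gene of the list with the largest difference in fasting, is printed for its 250 bases before the start, with an E-box in capitals, and a shorter stretch is printed for Ctsl and Atg5, which differed between the fasted genotypes.
Bnip3 (chr7:138909507-138909756, - strand): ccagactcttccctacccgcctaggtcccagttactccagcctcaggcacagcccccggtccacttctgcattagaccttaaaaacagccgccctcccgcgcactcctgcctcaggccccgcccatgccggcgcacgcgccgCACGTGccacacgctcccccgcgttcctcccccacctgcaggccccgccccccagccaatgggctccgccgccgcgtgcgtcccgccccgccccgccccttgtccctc
Ctsl (chr13:64370741-64370766, - strand, 236 bases before the start): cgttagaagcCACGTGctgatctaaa
Atg5 (chr10:44268315-44268340, + strand, 14 bases before the start): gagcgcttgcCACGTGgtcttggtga

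Fasting moved a minority of these genes past 1.5-fold, the threshold used for pooled arrays, and the machinery and the lysosome did not move as blocks. In wild-type liver 6 of the 43 genes were higher in the fasted pool, where 8.20% of all measured genes were, and 2 were lower, where 8.29% were. In null liver 9 were higher and 5 lower, beside 12.4% and 18.0% of all genes. Fasted null liver was above fasted wild-type liver for 5 genes and below it for 8, beside 8.58% and 13.6% of all genes. Between the fed pools 0 genes were higher in null liver and 1 was lower, beside 2.38% and 2.12%. In percent of the 43 genes these counts are 14.0% and 4.65% in wild-type fasting, 20.9% and 11.6% in null fasting, and 11.6% and 18.6% between the fasted pools. Bright genes crossed the threshold more often, and of the 3356 genes with a mean of 64 units or more 11.8% were higher and 12.0% lower in wild-type fasting, and 15.4% and 23.8% in null fasting. Between the fasted pools 10.4% of these bright genes were higher and 18.4% lower in null liver. The gene list's median log2 difference was 0.11 in wild-type and 0.10 in null fasting, -0.03 between the fasted pools and -0.04 between the fed pools, with the median of all genes between -0.01 and 0.00. Taken apart, the 21 machinery genes gave 3 higher and 0 lower in wild-type fasting, 6 and 3 in null fasting, and 3 and 5 between the fasted pools, with medians of 0.16, 0.21 and 0.10. The 22 lysosomal genes gave 3 and 2, 3 and 2, and 2 and 3, with medians of 0.04, -0.03 and -0.09. By the brightest probe set of each gene, 24 of the 43 genes passed the threshold in no comparison, 10 of the machinery and 14 of the lysosome. Among these, Map1lc3b, Wipi2 and Lipa each had a dimmer probe set past it. The share of all measured genes that passed in no comparison was not counted. Whether fewer cells of a type or less RNA per cell underlies a lower value cannot be told apart in pooled tissue.

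The counts depend on how the fasted null array is scaled. Centring the arrays on their bright probe sets raised the null fasting differences by 0.13 and the differences between the fasted pools by 0.15 on the log2 scale. The 43 genes then split into 12 higher and 4 lower in null fasting, so that the share of lower calls went from 35.7% to 25.0%, and into 6 higher and 5 lower between the fasted pools, where that share went from 61.5% to 45.5%. For all genes the share of lower calls went from 59.1% to 47.6% and from 61.4% to 44.9% in these comparisons. In null fasting the centred counts are 27.9% higher and 9.30% lower of the 43 genes, beside 15.9% and 14.4% of all genes. Between the fasted pools they are 14.0% and 11.6%, beside 12.6% and 10.2% of all genes. In wild-type fasting Ulk2 joined the lower genes, at -0.60, which made 6 higher and 3 lower. These are 14.0% and 6.98%, beside 7.58% and 8.67% of all genes after centring. Wipi2, Atg7 and Map1lc3b joined the genes higher in null fasting and Ctsc left the lower ones, while Atg5, Ctsc and Psap dropped out of the genes lower in the fasted null pool and Mcoln1 joined the higher ones.

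**Figure D1:**
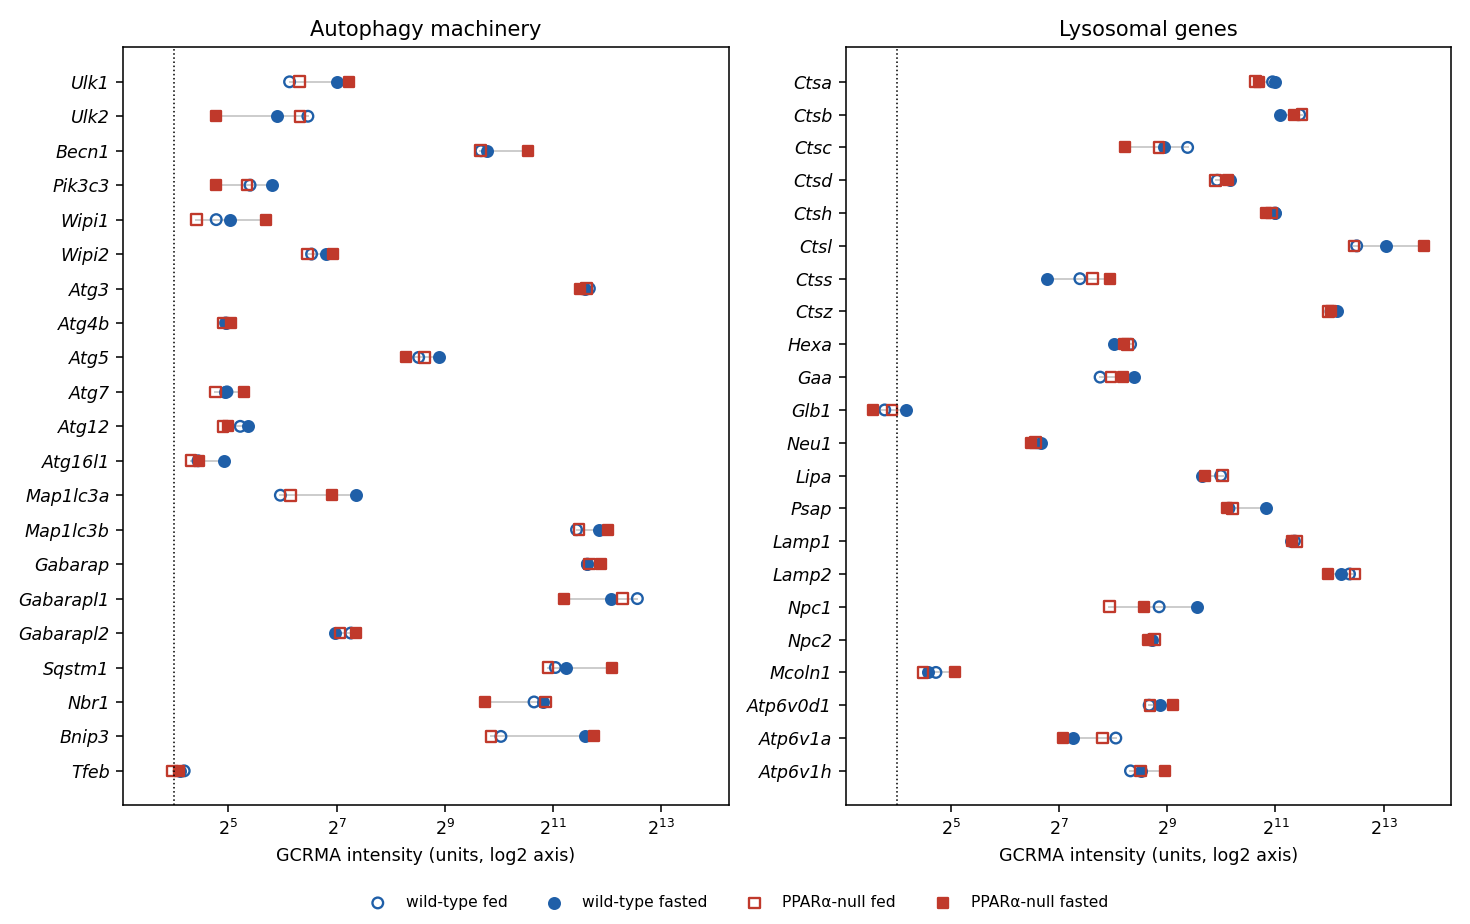
Intensity of the 43 measured genes on the 4 pooled arrays, on a log2 axis in GCRMA units, with the autophagy machinery on the left and the lysosomal genes on the right; open symbols are fed pools, filled symbols fasted pools, circles wild-type and squares PPARα-null, and the dotted line is the 16-unit floor. The fasted null pool (filled square) stands apart from the other 3 for Ulk2, Becn1, Sqstm1, Nbr1, Gabarapl1 and Ctsl, while Bnip3 separates by feeding in both genotypes.

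**Figure D2:**
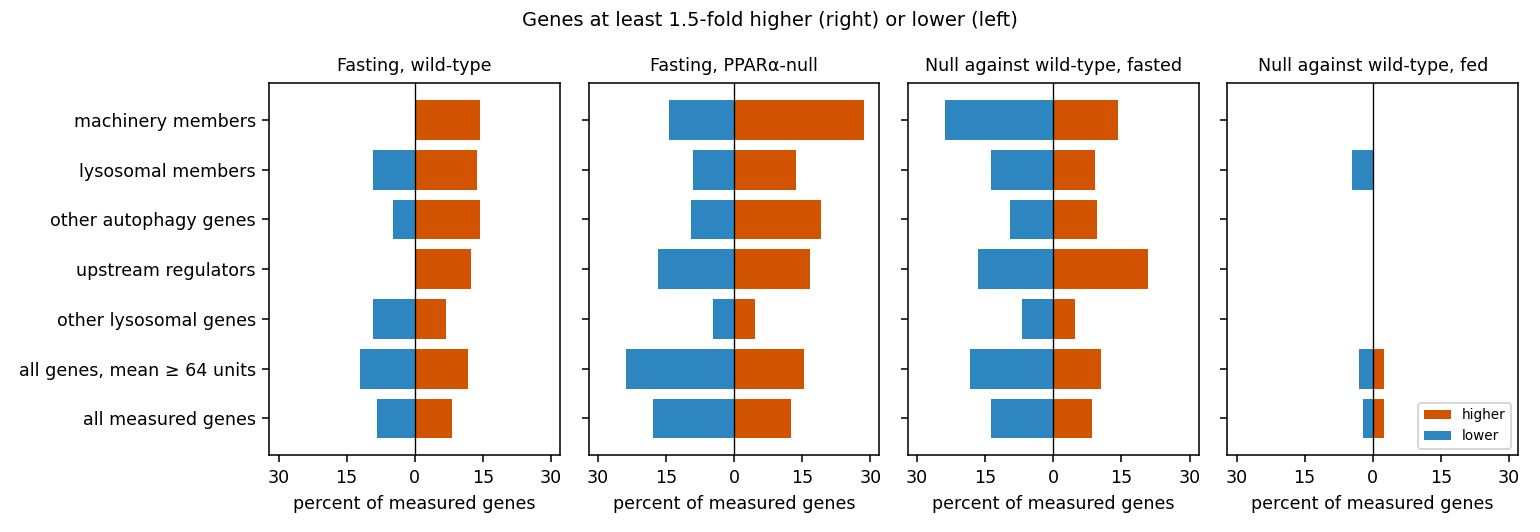
Percent of measured genes at least 1.5-fold higher (right) or lower (left) in each of the 4 comparisons, for the machinery and lysosomal genes of the list, for 3 further lists of pathway genes, and for all measured genes. The machinery has 0 genes lower in wild-type fasting, beside 8.29% of all measured genes, and 6 of 21 higher in null fasting, beside 12.4%. After centring these counts are 1 and 9, beside 8.67% and 15.9%. Between the fasted pools 3 of the 21 are higher and 5 lower in null liver, beside 8.58% and 13.6%. The fed pools hardly differ in any list.

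The initiation kinases differed from each other. Ulk1 measured 70.0 units in fed and 129 units in fasted wild-type liver, and 79.4 and 150.5 units in fed and fasted null liver, so that both fasted pools stood 1.85- and 1.89-fold above their fed pools. Ulk2 went the other way, from 88.6 to 59.5 units in wild-type and from 79.9 to 27.4 units in null liver, a log2 difference of -0.57 and -1.54. The first of these lies just inside the threshold of 1.5-fold and the second is past it. By this probe set the fasted null pool was 2.17-fold below the fasted wild-type pool. The second probe set for Ulk2, between 31.7 and 47.5 units, gave -0.52 in null fasting and -0.14 between the fasted pools, both inside the threshold. The mean of the probe sets gave -0.46 between the fasted pools, and the Ulk2 differences past 1.5-fold rest on 1 probe set. With a floor at 64 units the difference in null fasting was -0.32. That floor lies above both fasted values, so the 0.00 it gave between the fasted pools was fixed by construction.

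Within the lipid kinase complex, Becn1, which encodes Beclin 1, measured 814, 878 and 809 units in fed wild-type, fasted wild-type and fed null liver and 1481 units in fasted null liver. The fasted null pool stood apart from the other 3 pools, 1.83-fold above the fed null pool and 1.69-fold above the fasted wild-type pool. This value belongs to the brightest of 3 bright probe sets for Becn1, of which 2 passed the threshold in null fasting and 1 between the fasted pools. Pik3c3, the catalytic subunit of the complex, was dim throughout, with 42.2 and 55.7 units in fed and fasted wild-type liver and 40.5 and 27.3 units in fed and fasted null liver. Its value in fasted null liver was 2.04-fold below that in fasted wild-type liver, while neither fasting difference alone (0.40 and -0.57) passed the threshold.

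The Wipi proteins bind the lipid that this complex makes. Wipi1 measured 27.4 and 32.7 units in fed and fasted wild-type liver and 21.2 and 52.1 units in fed and fasted null liver, so that the fasted null pool was the brightest, 2.45-fold above the fed null pool. All its values were under 64 units, and its second probe set gave 0.92 in null fasting and 0.45 between the fasted pools. Wipi2 stayed between 87.9 and 122 units, with differences of 0.27 in wild-type and 0.48 in null fasting. Its second probe set, with 53.6 and 103 units in fed and fasted wild-type liver and 54.3 and 62.9 units in fed and fasted null liver, differed by 0.95 in wild-type fasting, past the threshold.

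The enzymes that attach Atg8 proteins to the membrane mostly stayed within 1.5-fold. Atg3, the E2-like enzyme, lay between 2899.7 and 3264 units on the 4 arrays. The E1-like enzyme Atg7, the ubiquitin-like Atg12, its partner Atg16l1 and the protease Atg4b had at most 41.1 units, and none passed 1.5-fold in any comparison. Atg5, which is joined to Atg12, measured 366 units in fed and 475 units in fasted wild-type liver, and 394 and 313 units in fed and fasted null liver. Its opposite differences, 0.37 and -0.33, placed fasted null liver 1.52-fold below fasted wild-type liver, just past the threshold. The call was lost under quantile normalization (-0.50), lowess (-0.57), centring (-0.45) and the mean of its probe sets (-0.41).

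Among the Atg8 proteins themselves the LC3 genes and Gabarapl1 had fasting differences of opposite sign. Map1lc3a measured 62.2 and 164 units in fed and fasted wild-type liver and 71.1 and 121 units in fed and fasted null liver, 2.63- and 1.70-fold higher with fasting. Map1lc3b went from 2769 to 3676 units and from 2863 to 4122 units, a difference of 0.41 and 0.53, inside the threshold. Its dimmer probe sets differed by 0.94 and 0.79 in wild-type and 1.09 and 0.95 in null fasting, past the threshold in both.

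Gabarapl1, a member of the other Atg8 branch, measured 6038 and 4303 units in fed and fasted wild-type liver and 4981 and 2367 units in fed and fasted null liver, and only the null difference, 2.10-fold, passed the threshold. Fasted null liver had 1.82-fold less of it than fasted wild-type liver. Gabarap (3155 to 3781 units) and Gabarapl2 (125 to 164 units) passed the threshold in no comparison.

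The cargo receptors held some of the widest genotype contrasts. Sqstm1, which encodes p62, measured 2111, 2407 and 1921 units in fed wild-type, fasted wild-type and fed null liver and 4346 units in fasted null liver, 2.26-fold above the fed null pool. Nbr1, a receptor of related structure, showed the reverse with 1607, 1794 and 1859 units in those 3 pools and 856 units in fasted null liver. The other 3 pools lay within 1.5-fold of each other for both genes, and the fasted null pool was 1.81-fold above the fasted wild-type pool for Sqstm1 and 2.09-fold below it for Nbr1.

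Bnip3, a mitochondrial protein that recruits Atg8 proteins, had the largest fasting difference of the list in both genotypes. It measured 1051 and 3101 units in fed and fasted wild-type liver and 927 and 3483 units in fed and fasted null liver. The fasted pools were 2.95- and 3.76-fold above the fed pools, and the genotypes differed by 0.17 when fasted and -0.18 when fed. Tfeb, the transcription factor, was near the floor on all arrays, between 15.6 and 18.1 units.

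Of the 14 lysosomal hydrolases and their cofactors, Ctsl, Ctss, Ctsc, Gaa and Psap passed the threshold somewhere. Ctsl, a cysteine protease, measured 5797 and 8406 units in fed and fasted wild-type liver and 5592 and 13665 units in fed and fasted null liver. The fasted null pool was 2.44-fold above the fed null pool and 1.63-fold above the fasted wild-type pool, while the wild-type difference of 0.54 stayed inside the threshold. Ctsc, a dipeptidyl peptidase, ran the other way, from 664 to 491 units in wild-type and from 460.3 to 297 units in null liver, and was lower in null than in wild-type liver both fed (-0.53) and fasted (-0.73), past the threshold when fasted.

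Ctss, a cysteine protease abundant in antigen-presenting cells, measured 167 units in fed and 109 units in fasted wild-type liver, and 197 and 244 units in fed and fasted null liver. It was lowest in the fasted wild-type pool, 1.53-fold below the fed pool, and the fasted null pool stood 2.24-fold above it. The macrophage markers moved alongside. Of the 13 measured markers, 7 were lower and 0 higher in wild-type fasting (median -0.64), and 10 were higher and 0 lower when the fasted null pool is set against the fasted wild-type pool (median 0.87, range 0.08 to 1.84). In null fasting 4 were higher and 1 lower, and between the fed pools 1 was higher. Of all measured genes 8.29% were lower in wild-type fasting and 8.58% higher in the fasted null pool than in the fasted wild-type pool. The defining marker Cd68 was below the floor on all arrays. Macrophage markers were not alone in this course. The 6 measured stellate cell and fibroblast markers had medians of -0.32 in wild-type and 0.13 in null fasting. Between the fasted pools their median was 0.64, with 4 higher and 0 lower, and between the fed pools 3 were higher. Of 8 endothelial markers 3 were higher and 2 lower between the fasted pools. The share of the Ctss values that comes from any of these cell types was not tested.

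**Figure D3:**
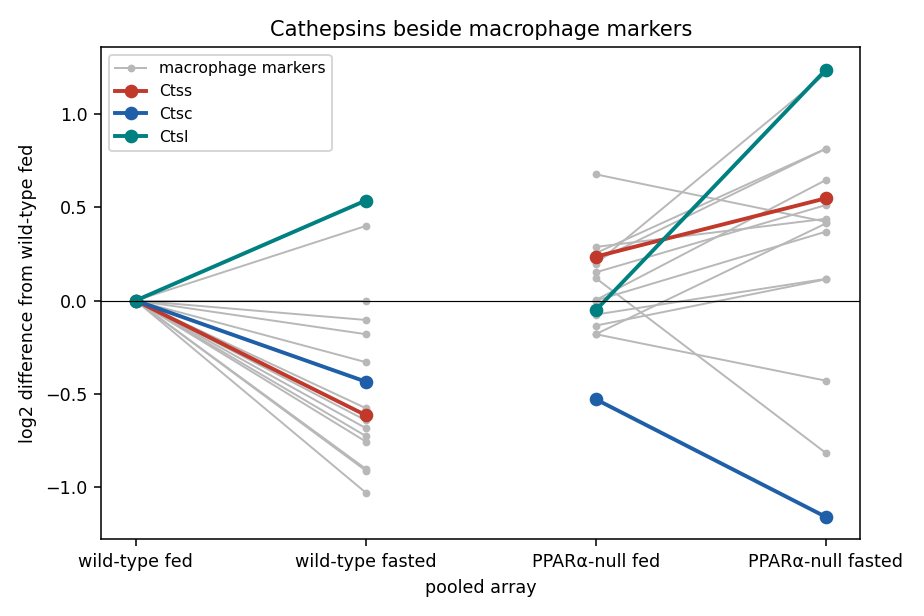
Log2 difference from fed wild-type liver of cathepsins Ctss, Ctsc and Ctsl and of the 13 measured macrophage markers (grey) on the 4 pooled arrays, with lines joining the fed and fasted pool of each genotype. Ctss lies within the spread of the markers on every array, while Ctsl is higher and Ctsc is lower in fasted null liver than the bulk of them.

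Psap encodes the precursor of the saposins, which help hydrolases to degrade sphingolipids. It measured 1128 and 1806 units in fed and fasted wild-type liver and 1184 and 1099 units in fed and fasted null liver, so that the fasted wild-type pool stood above the other 3, 1.60-fold over its fed pool. Gaa, the acid glucosidase that degrades glycogen in lysosomes, went from 216 to 333 units in wild-type and from 249 to 291 units in null liver. By this probe set it passed the threshold in wild-type liver alone (1.54-fold). Its dimmer probe set, under 64 units, gave 0.90 in wild-type and 0.56 in null fasting, the latter just inside the threshold. Whether the 1.54-fold difference differs from that in null liver (1.17-fold) was not tested.

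By the brightest probe set of each gene, the other hydrolases kept their level. Ctsa, Ctsb, Ctsd, Ctsh and Ctsz lay between 952 and 4515 units, Hexa, Neu1 and Lipa, the acid lipase, between 89.2 and 1039.7 units, and each stayed within 1.5-fold in each comparison. By these probe sets the largest difference among the 8 genes was -0.37, for Ctsb in wild-type fasting. Both dimmer probe sets for Lipa were lower in the fasted null pool. They gave -0.59, past the threshold, and -0.40 in null fasting, and -0.50 and -0.64 between the fasted pools. Glb1 was above the floor only in fasted wild-type liver (18.0 units).

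Of the 8 genes for the lysosomal membrane and its proton pump, Npc1 had a steady genotype difference. Npc1, which exports cholesterol from the lysosome, measured 461 and 753 units in fed and fasted wild-type liver and 243 and 380.0 units in fed and fasted null liver. The fasted pools were 1.63- and 1.56-fold above the fed pools, and null liver was 1.90-fold lower than wild-type liver when fed and 1.98-fold lower when fasted, the only gene of the list past the threshold between the fed pools. Its partner Npc2 stayed between 400.2 and 434 units.

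Atp6v1a, the catalytic subunit of the proton pump, measured 265 and 153 units in fed and fasted wild-type liver and 223 and 135 units in fed and fasted null liver, 1.72- and 1.65-fold lower with fasting. The subunits Atp6v0d1 (406 to 553 units) and Atp6v1h (319 to 495 units) had positive differences in both genotypes that stayed inside the threshold. Mcoln1, a calcium channel of the lysosome, measured 26.4 and 23.9 units in fed and fasted wild-type liver and 22.3 and 33.8 units in fed and fasted null liver, 1.51-fold higher in null fasting, at a level near the floor. The abundant membrane proteins Lamp1 (2498 to 2671 units) and Lamp2 (4008 to 5683 units) passed the threshold in no comparison.

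The genotypes shared part of the fasting pattern. Ulk1, Map1lc3a, Bnip3 and Npc1 were higher and Atp6v1a lower in both, 0 genes passed the threshold in opposite directions and 26 passed in neither genotype. Of all 6947 measured genes, 289 were higher and 416 lower in both, 52 passed in opposite directions and 4446 passed in neither. The shared higher genes are 66.7% of those higher in wild-type and 44.4% of those higher in null fasting, beside 50.7% and 33.4% for all measured genes. For the 3356 genes with a mean of 64 units or more these shares were 54.0% and 41.5%. Across the 43 genes, which share the arrays and their normalization, the fasting differences of the genotypes had a Pearson r of 0.62 and a Spearman rho of 0.55. The values were 0.58 and 0.53 across all genes, and 0.63 and 0.61 across the bright genes.

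**Figure D4:**
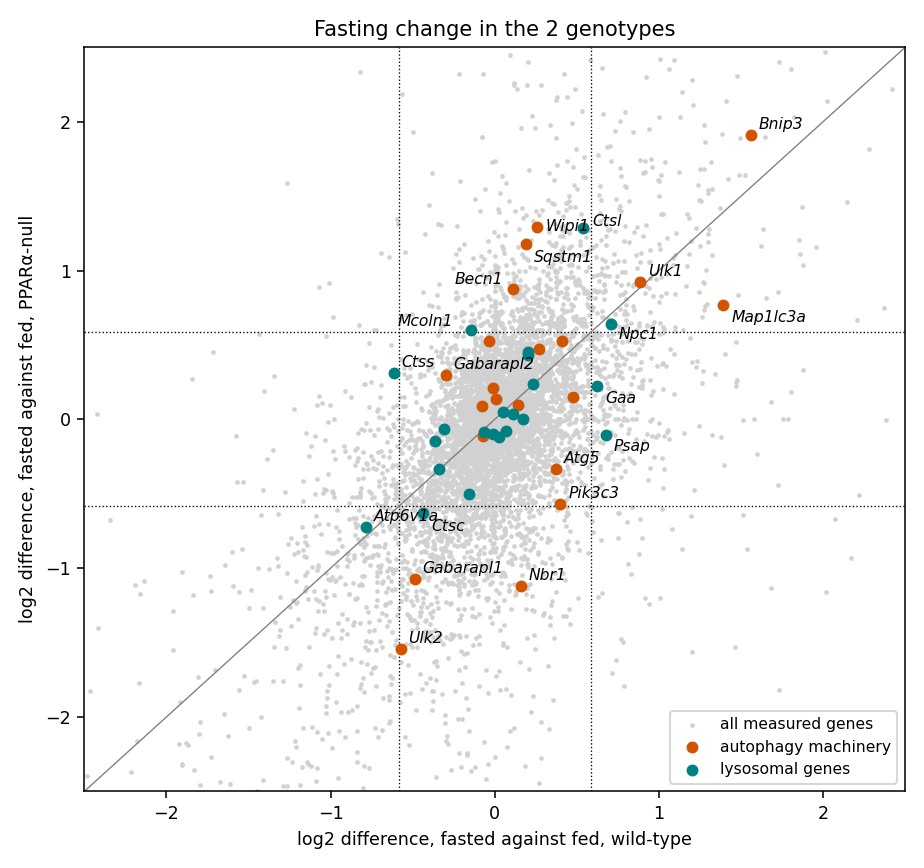
Log2 difference between fasted and fed liver in wild-type (horizontal axis) and PPARα-null mice (vertical axis) for the autophagy machinery (orange), the lysosomal genes (teal) and all measured genes (grey); dotted lines mark 1.5-fold, the diagonal marks equal change, and 157 genes outside the axes are not drawn. Genes are named that passed 1.5-fold in a genotype or in the difference of the changes, with Bnip3 at the upper right and Ulk2 and Nbr1 lowest on the null axis.

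The difference of the 2 fasting changes (null minus wild-type) reached 1.5-fold upwards for 7 of the 43 genes (16.3%) and downwards for 6 (14.0%), beside 9.14% and 14.9% of all measured genes. It ran from -1.28 for Nbr1 to 1.04 for Wipi1. On the positive side stood Wipi1, Sqstm1 (0.99), Ctss (0.93), Becn1 (0.76), Ctsl (0.75), Mcoln1 (0.74) and Gabarapl2 (0.59). On the negative side stood Nbr1, Ulk2 (-0.97), Pik3c3 (-0.97), Psap (-0.79), Atg5 (-0.70) and Map1lc3a (-0.62). The machinery gave 4 of the positive and 5 of the negative genes.

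Several genes were measured by more than 1 probe set of 64 units or more, which gives the one check possible within an array. For the 13 such genes, with 33 probe sets, the pooled SD between probe sets of a gene was 0.25 for wild-type fasting, 0.19 for null fasting, 0.26 for the fasted genotypes and 0.11 for the fed genotypes, on the log2 scale. Probe sets of a gene share the sample and can read different transcripts, so that this is no replicate error. Nbr1, Gabarapl1 and Psap passed the threshold between the fasted pools with both of their bright probe sets, Atg5 with 1 of 2, and Becn1 with 1 of 3, of which another had the opposite sign. In wild-type fasting 1 of the 2 bright probe sets for Atp6v1a passed. Wipi2 and Lipa, within 1.5-fold by their brightest probe set, each had a dimmer one past the threshold between the fasted pools (-0.71 and -0.64).

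**Figure D5:**
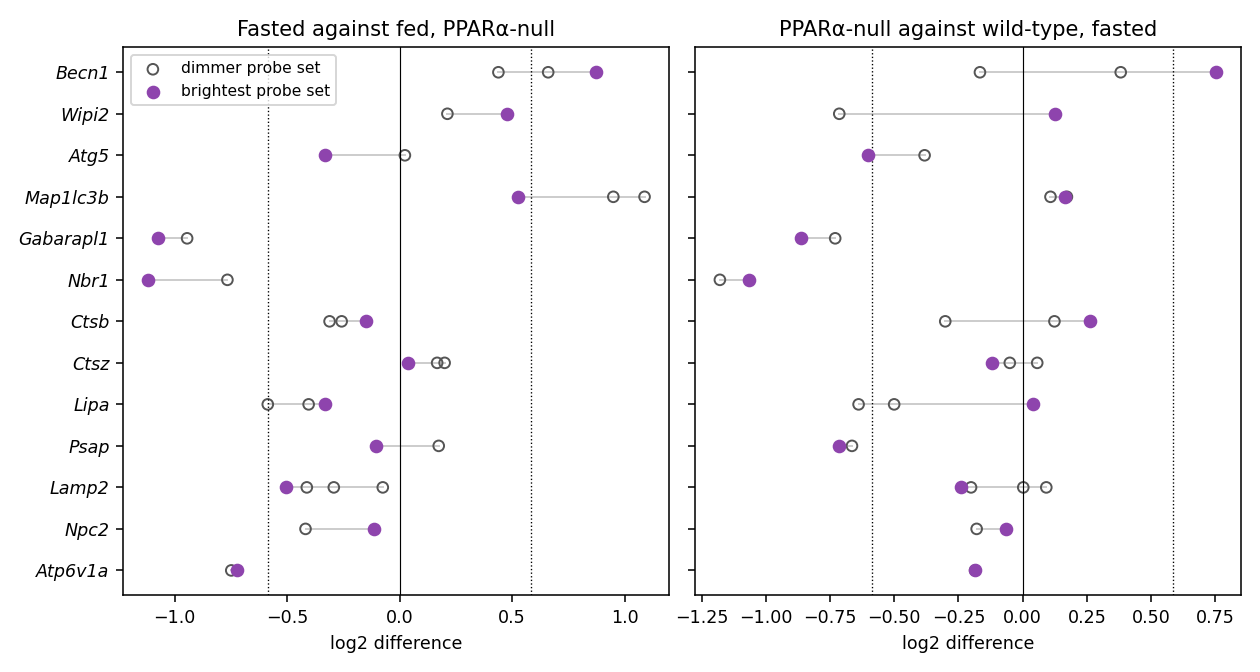
Log2 differences of each probe set of 64 units or more for the 13 genes with several, in null fasting (left) and between the fasted genotypes (right); filled points are the brightest probe set, used for the gene's value, open points are dimmer ones, and dotted lines mark 1.5-fold. The 2 probe sets of Nbr1 and of Gabarapl1 lie together past the line, while those of Becn1, Wipi2 and Lipa spread across 0 on the right.

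Further genes of the route were looked at through 3 lists. Among other autophagy genes, 21 of 29 listed genes were measured, with 3 higher and 1 lower in wild-type fasting, 4 and 2 in null fasting, and 2 and 2 between the fasted pools. These are 14.3% and 4.76%, 19.0% and 9.52%, and 9.52% and 9.52%, beside 8.20% and 8.29%, 12.4% and 18.0%, and 8.58% and 13.6% of all measured genes. After centring, 5 were higher and 2 lower in null fasting and 3 higher and 0 lower between the fasted pools. These are 23.8% and 9.52%, beside 15.9% and 14.4% of all genes after centring, and 14.3% and 0%, beside 12.6% and 10.2%. Uvrag, which encodes a partner of Beclin 1, measured 193 and 305 units in fed and fasted wild-type liver and 195 and 808 units in fed and fasted null liver, so that fasted null liver stood 1.41 above fasted wild-type liver on the log2 scale. Tmem41b, a membrane protein needed to form autophagosomes, was lower in both fasted pools, with 230.2 and 92.2 units in wild-type and 189 and 95.3 units in null liver. Also past the threshold were the receptor Tax1bp1 in wild-type fasting (0.62, with 0.24 from its second probe set), and Atg101 of the Ulk complex (-0.62) and the adaptor Tollip (0.61, with -0.01 from its second probe set) between the fasted pools.

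Of 36 upstream regulators 24 were measured, with 3 higher and 0 lower in wild-type fasting, 4 and 4 in null fasting, and 5 and 4 between the fasted pools. As shares these are 12.5% and 0%, 16.7% and 16.7%, and 20.8% and 16.7%, to be read against the same shares of all genes. Flcn, the folliculin gene of nutrient signalling to mTORC1, measured 118 and 162 units in fed and fasted wild-type liver and 119 and 45.8 units in fed and fasted null liver. Deptor, an inhibitor of mTOR, measured 1157, 995 and 1053 units in fed wild-type, fasted wild-type and fed null liver and 327 units in fasted null liver. Both genes were thus lowest in the fasted null pool, by -1.82 and -1.61 against fasted wild-type liver on the log2 scale. Sesn1, a stress-induced inhibitor of mTORC1 signalling, was highest there (119.7 units, against 53.6 to 59.6 units in the other 3 pools). The second probe set for Flcn gave -0.41 in null fasting, inside the threshold, and passed it between the fasted pools, as did both dimmer probe sets for Sesn1 (1.67 and 1.23). The third Sesn1 probe set also differed between the fed pools, with 59.6 units in wild-type and 31.4 units in null liver (-0.93).

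In wild-type fasting the regulators past the threshold were Mtor (0.90), Prkag2, a subunit of AMPK (0.82), and the transcription factor Foxo1 (0.63). Foxo1 measured 133 and 206 units in fed and fasted wild-type liver and 109.8 and 376 units in fed and fasted null liver, and was thus higher in the fasted pool of both genotypes. By their brightest probe set 0 of the 24 regulators passed the threshold between the fed pools.

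Of 64 other lysosomal genes 43 were measured, with 3 higher and 4 lower in wild-type fasting, 2 and 2 in null fasting, and 2 and 3 between the fasted pools. The shares, 6.98% and 9.30%, 4.65% and 4.65%, and 4.65% and 6.98%, are near those of all genes in wild-type fasting and under them in null fasting and between the fasted pools. After centring, which brought a further gene above the floor, the counts were 2 and 4, 5 and 2, and 7 and 2. The centred shares were 11.4% and 4.55% in null fasting, beside 15.9% and 14.4% of all genes. Between the fasted pools they were 15.9% and 4.55%, beside 12.6% and 10.2%, so the share of higher genes was then above that of all genes. Gm2a, the cofactor of hexosaminidase A, measured 262 and 117 units in fed and fasted wild-type liver and 344 and 155 units in fed and fasted null liver. By this probe set it was lower by a similar amount in both (-1.16 and -1.15). Its second probe set gave -0.47 in wild-type fasting, inside the threshold, and -0.76 in null fasting, and 0.81 between the fed pools. The acid phosphatase Acp5 (-0.92) and the carboxypeptidase Scpep1 (-0.77) were lower in wild-type fasting. Between the fasted pools Atp6v0e, a further subunit of the proton pump (0.99), and Laptm4a (0.67) were higher and Gusb, the beta-glucuronidase, was lower (-0.82) in null liver. The second probe set for Gusb gave -0.49 there, inside the threshold. By their brightest probe sets, 0 genes of these 3 lists passed the threshold between the fed pools.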

How the data were processed

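Liver RNA pools of 4 groups of 5 mice were hybridised to 1 array each. The deposited intensity values are linear GCRMA intensities that the authors made with background correction, quantile normalization and summary per probe set. The submitters' processing notes name GCRMA 2.20. The sources used here do not say which arrays were normalized together, and scanner files were not used here. The amount of labelled RNA and the number of mice per pool are not stated alike in all sources, and 5 mice is the number of the series' design text.

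Probe sets were named from the platform annotation: of 22690, 20393 name 1 gene, 691 several and 1606 none. Values were converted to log2 and set to a floor of 4 (16 units). A gene was read from its brightest probe set by mean log2 value. Comparisons are log2 differences of 1 array from another, and a gene was called at 1.5-fold or more, the threshold in the study's methods. With 1 array per group, tests and p-values were left out, and the number of arrays limits the precision. The members and lists were chosen with earlier results of these data known. Every listed gene is accounted for. Genes past 1.5-fold are given with all 4 values, and from each of the 3 further lists up to 3 genes of at least 64 units with the largest difference past 1.5-fold in wild-type fasting and between the fasted genotypes are named. Promoter sequences are from RefSeq (GRCm38.p6).

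Alternatives were a 2-fold threshold, other floors, a filter at 64 units, centring on bright probe sets, quantile normalization, lowess (fraction 0.3), the mean of a gene's probe sets, and leaving out probe sets whose suffix marks several possible transcripts. Requiring all bright probe sets to agree was chosen after seeing the data. The counting was tested on simulated data with 2-fold changes planted in bright genes only. That setting does not cover dim genes or differences near 1.5-fold. Python 3.11.15, numpy 2.4.6, pandas 2.3.3, scipy 1.17.1, statsmodels 0.14.6 and matplotlib 3.10.9 were used.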

Additional observations from a re-analysis of the deposited data

How the results depend on the processing

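At a 2-fold threshold, 2 genes of the list were higher and 0 lower in wild-type fasting, 4 higher and 3 lower in null fasting, 1 higher and 3 lower in fasted null liver against fasted wild-type, and 0 lower in fed null liver, and the fasting change differed between genotypes for 2 genes in place of 13. With the mean of a gene's probe sets, 1 gene was lower in wild-type fasting, 3 were higher in fasted null liver, and 8 differed in their fasting change. Without suffixed probe sets, which left 31 genes, 2 were higher and 5 lower in fasted null liver and 6 differed in their fasting change, and Becn1 turned to -0.17 there. Requiring agreement of every bright probe set left 1 gene lower in wild-type fasting and 3 higher in fasted null liver. Centring left 5 genes lower in fasted null liver. A floor at 64 units, which left 34 genes, gave 8 differences of the fasting change. The other counts stayed within 1.5 times of those reported, and all 9 counts did so under quantile normalization, lowess, no floor and the filter at 64 units, although single calls such as Atg5 between the fasted pools were lost. The fewer genes and stricter threshold account for lower counts by construction, and for the probe-set choices and centring the cause was not tested. No paired analysis was possible because each group holds 1 array. Every difference rests on 1 pair of pooled arrays.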
